A study of Mus musculus with 9 samples.

Results

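The genes described here are 37 regulators of autophagy and the lysosome, chosen by name from the mouse autophagy machinery and found by their Ensembl identifiers in a table of read counts for 37816 genes. All 37 genes had counts in all libraries and passed the filter on low counts that left 19353 genes for testing. The RNA came from the cerebellum of 9 mice of the C57BL/6 background that were harvested at 18 months of age. Every mouse was transgenic for human ATXN3, the gene mutated in spinocerebellar ataxia type 3 (SCA3), on a yeast artificial chromosome. The CAG tract of the transgene had 15 repeats in the 15Q mice, called the controls here, and 84 repeats, the disease length, in the 84Q mice. The 15Q and 84Q mice received weekly intraperitoneal injections of PBS (0.01 M) per the study's methods, whereas the labels of their samples call them untreated. The 84Q+IGF-1 mice carried the 84-repeat transgene and received IGF-1 (50 mg/kg) each week from 9 to 18 months of age. Each group had 3 libraries, the labels carry a separate code for each, and p-values measure the spread between these samples. The codes of some 84Q and 84Q+IGF-1 mice begin with the same number, whose meaning is not given and which no test used. The sex of the mice is not given in the labels. The 15Q and 84Q mice were obtained from different sources, so the line and the repeat length cannot be told apart.

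Autophagy encloses cytoplasm, damaged organelles or protein aggregates in a double membrane, the autophagosome, which fuses with a lysosome where the contents are degraded. A kinase complex around ULK1 starts the process, a lipid kinase complex around Beclin 1 marks the growing membrane, and ubiquitin-like conjugation reactions attach LC3 and GABARAP proteins to it. Receptors such as p62 tether ubiquitinated cargo to these proteins, and the transcription factor TFEB controls many lysosomal genes. Ataxin-3, the protein that expands in SCA3, is a deubiquitinase, and neurons that lose basal autophagy accumulate ubiquitinated proteins.

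Between 17482654 and 58269196 counts fell on genes per library. Markers of the labelled tissue were abundant in all 9 libraries, with 771 to 951 CPM (counts divided by the scaled library size) of the Purkinje cell gene Calb1 and 1575 to 1826 CPM of the granule cell gene Cbln3. Of the other Purkinje cell genes, the mean levels in 15Q, 84Q and 84Q+IGF-1 were 129, 163 and 161 CPM for Pcp2 (edgeR adjusted p 0.0936 in 84Q against 15Q) and 181, 216 and 224 CPM for Pvalb (edgeR adjusted p 0.0876 in 84Q and 0.0484 in 84Q+IGF-1 against 15Q). With transcript length corrected, the edgeR adjusted p in 84Q was 0.196 for Pcp2 and 0.273 for Pvalb, and over the alternatives it was 8.38e-05 to 0.304 and 0.0134 to 0.273. The same means were 1413, 1430 and 1470 CPM for Car8. Itpr1 went the other way, with 3694, 3318 and 3430 CPM. In 84Q against 15Q, 4 of the 5 Purkinje cell genes had a positive log2 fold change (49.7% of all genes). Some markers of other tissues moved with the groups. The summed level of 6 intestinal epithelium markers was 17.5 to 27.7 CPM in the 15Q libraries, 4.17 to 6.07 CPM in the 84Q libraries and 4.69 to 5.65 CPM in the 84Q+IGF-1 libraries. The summed level of 5 skeletal muscle markers was 10.7 to 16.6 CPM in 15Q against at most 2.41 CPM in the other libraries, and 3 epidermis markers summed to 12.1 to 20.6 CPM in 15Q against at most 6.21 CPM. The sum of 4 liver markers was 2.94 to 5.99 CPM in 15Q against at most 2.11 CPM, mostly from Alb, while the means of Apoa2 and Serpina1a were higher in 84Q than in 15Q, at 0.436 against 0.294 CPM and 0.338 against 0.116 CPM. The defining markers Fabp2, Krt5, Cdh17 and Myh4 were at 0 counts in 6, 5, 4 and 4 libraries. The 6 choroid plexus markers summed to at most 63.5 CPM in 84Q+IGF-1, but reached 472 CPM in 15Q and 989 CPM in 84Q. Xist, which is transcribed from the inactive X chromosome, was 9.49 to 9.89 log2 CPM in 15Q mice 2 and 3, 84Q mouse 1 and 84Q+IGF-1 mouse 2, and under 0.285 log2 CPM in the other 5 mice. With Xist as a covariate, 84Q differed from 15Q on the log2 scale by -0.18 for Rb1cc1 (-0.24 without), 0.22 for Map1lc3a (0.28 without) and 0.28 for Gabarapl2 (0.32 without). With the choroid plexus level as a covariate, the same values were -0.24, 0.27 and 0.27. The part of the other signals in the values of the autophagy genes was not tested.

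All 37 genes were expressed in the cerebellum, and their levels differed far more between genes than between groups. The mean over the 9 libraries, in TPM (counts scaled by exon length and depth), ranged from 10.8 TPM for Tfeb to 388 TPM for Lamp1. The median of the 37 means was 36.4 TPM, against a median of 14.4 TPM over all genes tested. The smallest count of any of the genes in a library was 97, for Atg10, so none was near the detection limit of 3 counts. Replicates varied little, with a median SD within groups of 0.077 on the log2 scale, against 0.148 for all genes tested. The tightest gene was Ulk2 at 0.026 and the most variable was Atg101 at 0.239.

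By mean TPM, Gabarapl1 of the LC3 and GABARAP family was the most abundant transcript after Lamp1, followed by Sqstm1. The other genes of the family lay between 93.7 TPM for Map1lc3b and 185 TPM for Map1lc3a. Gabarapl1 reached 343 TPM ± 13.1 in the controls (SD, n = 3), 379 ± 41.2 in 84Q and 385 ± 28.5 with IGF-1. Sqstm1, which encodes p62, had 349 TPM ± 1.63, 370 ± 13.7 and 360 ± 23.8 in the same order of groups. Lamp1, an abundant glycoprotein of the lysosomal membrane, had 369 TPM ± 48.8, 411 ± 10.1 and 383 ± 14.8. The 5 family members of LC3 and GABARAP together gave 853 to 1029 TPM per library, more than the 9 genes of the conjugation machinery, which gave 232 to 255 TPM.

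Among related pairs, the order of levels was the same in every library for 9 of the 10 pairs compared here. Ulk1 was at 1.97 to 2.28 times the level of Ulk2 and Wipi2 at 1.49 to 1.84 times that of Wipi1. The mean ratio of Atg2a to Atg2b was 1.73 in the controls, 1.95 in 84Q and 1.83 with IGF-1. Map1lc3b, the LC3 gene most often assayed, was at 0.443 to 0.557 of the level of Map1lc3a in every library. Gabarapl1 was at 2.31 to 3.03 times the level of Gabarapl2, and Lamp1 at 7.68 to 12.7 times that of Lamp2. Only Gabarapl2 and Gabarap exchanged places, with a ratio of 0.897 to 1.27.

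**Figure D1:**
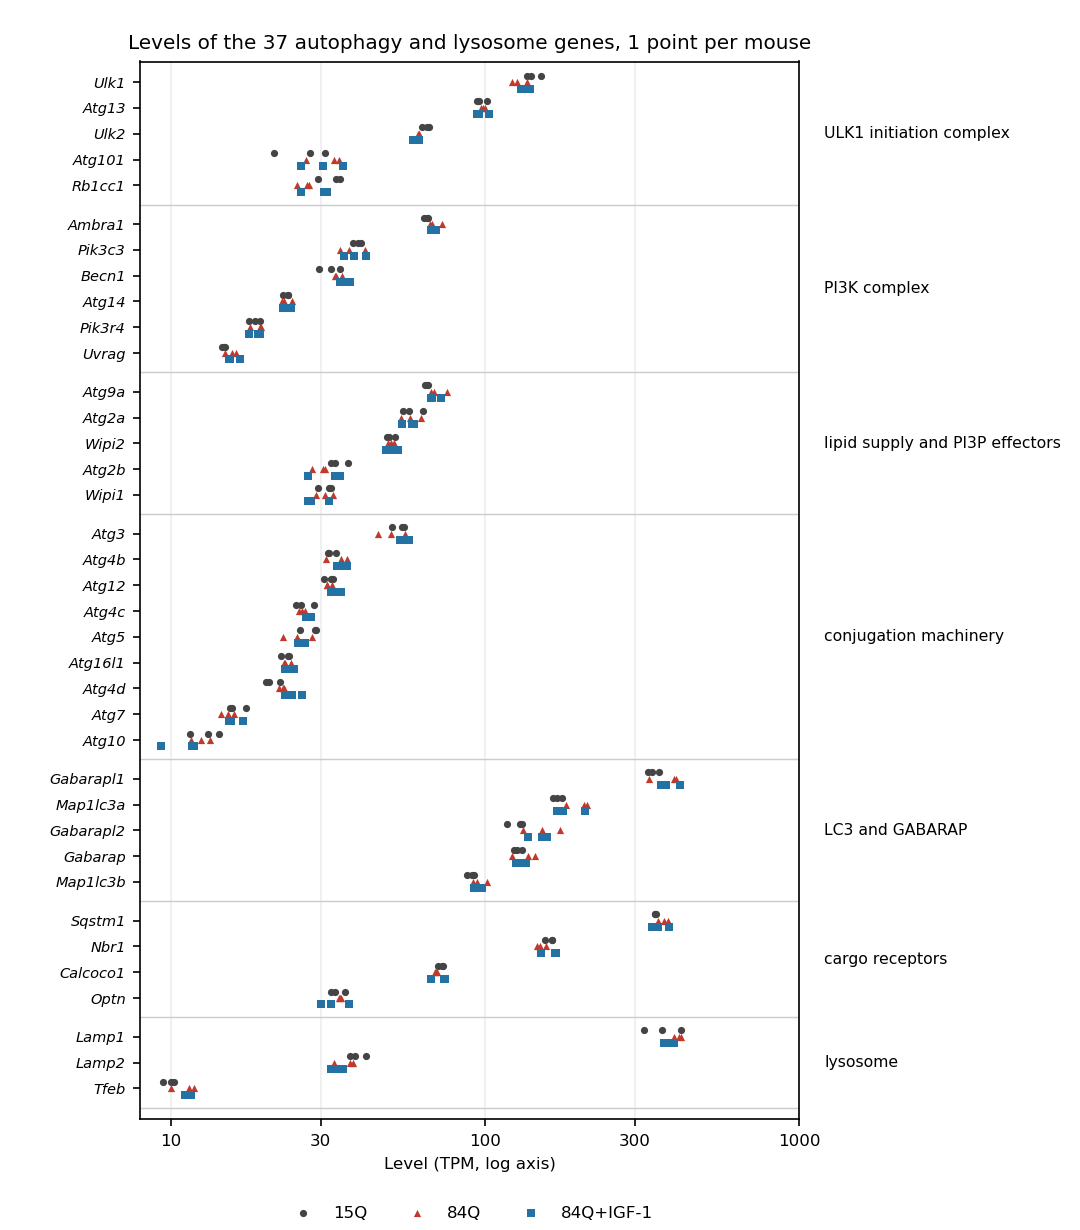
Level of each of the 37 genes in each of the 9 mice, in TPM on a log axis, with genes grouped by role and ordered by mean level within a role (15Q circles, 84Q triangles, 84Q+IGF-1 squares, 1 point per mouse). The genes span 10.8 TPM (Tfeb) to 388 TPM (Lamp1) in the mean, and the points of the 9 mice lie close together for each gene beside this range.

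The comparison of 84Q with 15Q asks what the expanded repeat changes, that of 84Q+IGF-1 with 84Q asks what the treatment changes, and that of 84Q+IGF-1 with 15Q sets the treated mice against the controls. None of the 37 genes passed the test in any of the 3 comparisons. In 84Q against 15Q, 0 of 37 genes had an edgeR adjusted p under 0.1 with a fold change of at least 1.5, where 2.14% of all genes tested were called. Without a threshold on the fold change, the count was again 0 of 37, against 4.8% of all genes in edgeR. The DESeq2 test gave 3 of 37, and its own share over all genes is not given here. In bulk tissue, fewer cells of a type and less RNA per cell cannot be told apart, so this holds for the cerebellum as a whole.

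The intervals of the differences were narrow enough to bound them. In 84Q against 15Q, the 95% interval of the fold change lay within 1.5-fold in either direction for 36 of 37 genes, as it did for 63.3% of all genes tested. The exception was Atg101, the gene with the highest spread, whose interval reached 1.54-fold. The share of all genes with such an interval was not matched for level, here or in the comparisons below. At an unadjusted p under 0.05, 10 of the 37 genes were higher in 84Q, against 9.04% of all genes tested, and 1 was lower, against 10.4%. Of these, Gabarapl2, Map1lc3a, Gabarapl1, Map1lc3b, Ambra1, Atg9a, Tfeb, Lamp1, Atg4d and Sqstm1 were higher and Rb1cc1 was lower. The levels of all 3 libraries of 84Q lay above those of 15Q for 11 genes (background 11.9%) and below them for 2 genes (background 13.5%). The median log2 fold change of the 37 genes was 0.06 and 25 of them were positive, while the median over all genes tested was near 0 and 49.7% of those were positive.

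In 84Q+IGF-1 against 15Q, again 0 of 37 genes were called, against 2.25% of all genes. By the adjusted p alone 0 passed, against 3.67% in edgeR. DESeq2 gave 1 of 37 at the adjusted p alone, again without its own share over all genes. At an unadjusted p under 0.05, 6 genes were higher (background 7.36%) and 1 was lower (background 10.4%). The higher ones were Atg4d, Becn1, Gabarapl2, Tfeb, Gabarapl1 and Atg4b, and the lower one was Lamp2. All 3 libraries of 84Q+IGF-1 lay above the 15Q libraries for 13 genes (background 11.7%) and below them for 2 genes (background 13%). The 95% interval stayed within 1.5-fold for 37 of 37 genes, as it did for 63.9% of all genes. Both comparisons use the same 15Q libraries, so their values are not independent of each other.

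Between 84Q+IGF-1 and 84Q, the test of the treatment, 0 of 37 genes were called and 0 passed the adjusted p alone, and over all genes tested these shares were also 0% in edgeR. DESeq2 called 0 of the 37 genes and 6 genes in all. At an unadjusted p under 0.05, 0 of 37 genes were higher (background 1.83%) and 0 were lower (background 2.84%). The 95% interval lay within 1.5-fold for 37 of 37 genes (66.1% of all genes), and the ends farthest from 1 were 0.690-fold for Atg10 and 1.23-fold for Atg101. Groups did not overlap for 1 gene that was higher in the treated mice, Atg4c (background 3.96%), and for 2 that were lower, Lamp1 and Ulk2 (background 4.5%).

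**Figure D2:**
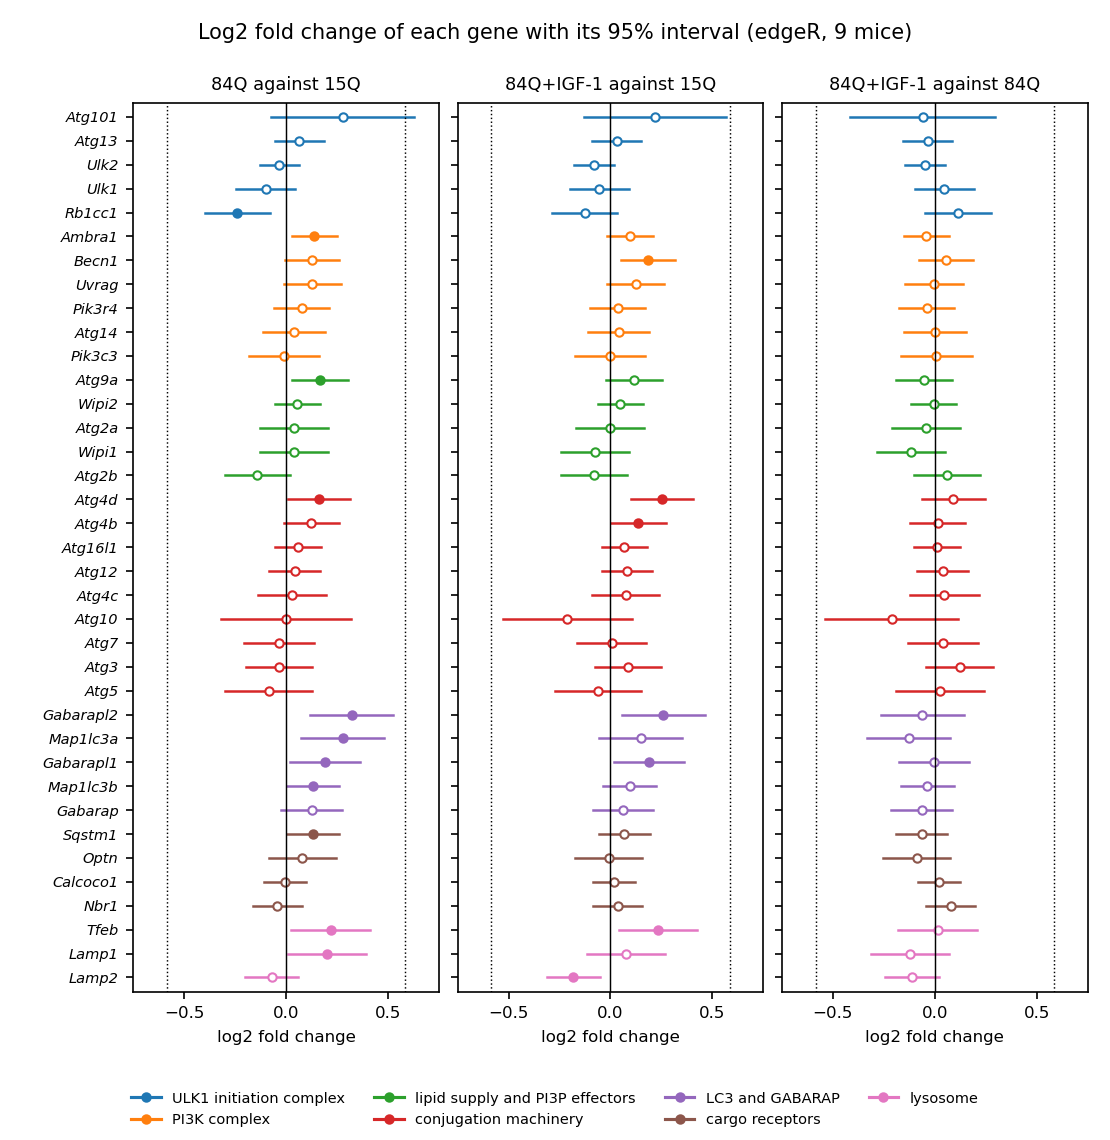
Log2 fold change of each gene (points) with its 95% interval (bars) from the edgeR fit to all 9 mice, for the 3 comparisons, coloured by role. Filled points have an unadjusted p under 0.05 (11, 7 and 0 genes), dotted lines mark 1.5-fold in either direction, and the interval of Atg101 in 84Q against 15Q is the only one that crosses such a line.

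The ULK1 complex receives signals from mTORC1 and AMPK and starts the formation of an autophagosome. Its scaffold FIP200, encoded by Rb1cc1 (ENSMUSG00000025907.14, GRCm38 chromosome 1, 6206197 to 6276648, plus strand), gave the only gene of the 37 that was lower in 84Q at an unadjusted p under 0.05. Rb1cc1 had 107, 123 and 124 CPM in the controls, 103, 102 and 95.4 CPM in 84Q, and 97.9, 115 and 111 CPM with IGF-1. The 84Q values lay below all 15Q values, and the treated mice spanned the range between them. The log2 fold change was -0.24 (SE 0.073) in 84Q against 15Q, with an edgeR adjusted p of 0.116 that ranged from 0.0133 to 0.638 over 18 alternative analyses. It was -0.13 (SE 0.073, edgeR adjusted p 0.388) in 84Q+IGF-1 against 15Q and 0.11 (SE 0.074, edgeR adjusted p 0.969) in 84Q+IGF-1 against 84Q. In sequence, 9.36% of the 31-base words of Rb1cc1 also occur in transcripts of other genes, so some of its reads could have been assigned elsewhere or discarded.

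The kinases of this complex are ULK1 and ULK2. Ulk1 had 228 CPM ± 14.1 in the controls (SD, n = 3), 212 ± 12.8 in 84Q and 219 ± 9.90 with IGF-1, and its log2 fold change in 84Q was -0.10 (SE 0.067, edgeR adjusted p 0.433), and -0.15 with length and GC corrected (edgeR adjusted p 0.118, with 0.118 to 0.767 over the alternatives). Ulk2, its close relative, had 98.9, 93.5 and 95.3 CPM in 15Q, and the treated mice had 90.9, 91.6 and 89.4 CPM, below all of them. This difference of -0.08 on the log2 scale (SE 0.044) had an edgeR adjusted p of 0.367. Atg13, which links the kinase to FIP200, stayed between 101 and 112 CPM in all 9 mice. Atg101, its stabilizing partner, had the lowest level of the complex by CPM, at 10.5 CPM ± 1.92 in the controls, 12.8 ± 1.66 in 84Q and 12.3 ± 2.13 with IGF-1, with overlapping groups.

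The phosphatidylinositol 3-kinase complex produces the lipid PI3P on the nascent membrane. Becn1 encodes its scaffold Beclin 1 (ENSMUSG00000035086.13, chromosome 11, 101285952 to 101302286, minus strand). Its levels were 52.1, 56.6 and 59.3 CPM in the controls, 60.0, 60.0 and 63.9 CPM in 84Q, and 65.2, 60.8 and 64.9 CPM with IGF-1. The 15Q mice were the lowest 3 of the 9, while the 84Q and treated mice overlapped. The log2 fold change of Becn1 in 84Q+IGF-1 against 15Q was 0.18 (SE 0.061) with an edgeR adjusted p of 0.156, and between 0.0993 and 0.536 in the alternatives. Of its exon bases, 43.9% overlap Cntd1 on the opposite strand, and with the strand setting of the counting not given in the sources used here, reads of this stretch cannot be attributed with certainty.

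Ambra1, a regulator that binds Beclin 1, had 101, 97.1 and 97.2 CPM in the controls, 104, 114 and 107 CPM in 84Q, and 107, 106 and 101 CPM with IGF-1. The 15Q mice again were the lowest 3. Its log2 fold change in 84Q was 0.14 (SE 0.051, edgeR adjusted p 0.173). Uvrag, which directs the complex toward endosomes, showed the same order of groups, with 32.6 to 33.2 CPM in the controls, 34.1 to 37.02 CPM in 84Q and 34.4 to 36.9 CPM with IGF-1, and 17.6% of its exon bases overlap Gm45187 on the opposite strand. The catalytic subunit Pik3c3 (39.2 to 47.0 CPM over the 9 mice), its regulatory kinase Pik3r4 (41.6 to 47.5 CPM) and the targeting subunit Atg14 (24.4 to 27.0 CPM) overlapped between all groups. In 84Q against 15Q, 5 of the 6 genes of the complex had a positive log2 fold change (49.7% of all genes) and 1 of 6 was higher at an unadjusted p under 0.05 (background 9.04%). With length corrected, as described further on, 4 of 6 were positive and those 4 were higher at this p (1085 of 19353 genes), and with length and GC corrected 3 of 6 were (1054 genes).

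Lipids reach the membrane through the scramblase ATG9A and the transfer proteins ATG2A and ATG2B, and the WIPI proteins read PI3P there. Atg9a had 93.6, 93.9 and 90.2 CPM in the controls, 98.6, 101 and 112 CPM in 84Q, and 108, 97.4 and 95.5 CPM with IGF-1. All 6 mice with the 84-repeat transgene were above the 15Q mice. However, 31.8% of the exon bases of Atg9a lie under a second gene model on the same strand, Gm29253, so its count is uncertain. Atg2b moved the other way in 84Q, with 108, 111 and 120 CPM in 15Q against 106, 105 and 97.1 CPM in 84Q (log2 fold change -0.14, SE 0.074, edgeR adjusted p 0.32), and with 94.8, 116 and 111 CPM the treated mice overlapped both. Atg2a, Wipi1 and Wipi2 overlapped between the groups, and Wipi1 had a log2 fold change of -0.12 (SE 0.077, edgeR adjusted p 0.969) in 84Q+IGF-1 against 84Q.

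The 9 genes of the conjugation machinery carry out the reactions that attach LC3 and GABARAP to lipid and release them again. Atg4d (ENSMUSG00000002820.6, chromosome 9, 21265293 to 21277772, plus strand) encodes one of the proteases that process them. It had 40.1, 36.2 and 36.3 CPM in the controls, 42.2, 42.2 and 41.3 CPM in 84Q, and 45.4, 47.3 and 41.3 CPM with IGF-1. All 6 mice with the expanded repeat were above the 15Q mice. Between 84Q+IGF-1 and 15Q the log2 fold change of Atg4d was 0.25 (SE 0.07), with an edgeR adjusted p of 0.101, just above the threshold. The adjusted p lay between 0.0357 and 0.354 in 18 alternatives and under the threshold in 8 of them. Atg4d overlaps Kri1 on the opposite strand over 19.3% of its exon bases.

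Values of the other genes of this machinery follow. Atg4b, the main protease of LC3, had 66.1 CPM ± 2.63 in the controls (SD, n = 3), 71.9 ± 5.86 in 84Q and 72.6 ± 1.22 with IGF-1. The E1-like Atg7 (25.6 to 29.96 CPM over the 9 mice), the E2-like Atg10 (4.0 to 6.1 CPM), and Atg5, Atg12 and Atg16l1, whose products form the E3-like complex, overlapped between 84Q and 15Q. Atg10 had the lowest CPM of the 37 genes, and its log2 fold change of -0.21 (SE 0.149) in 84Q+IGF-1 against 84Q, with an edgeR adjusted p of 0.969, had the widest interval of the comparison on the lower side. The E2-like Atg3 had 44.4, 36.7 and 40.6 CPM in 84Q and 43.6, 45.1 and 43.8 CPM in 84Q+IGF-1. These overlap, and the log2 fold change was 0.12 (SE 0.075, edgeR adjusted p 0.969), the smallest p among the genes that were higher in the treated mice.

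The LC3 and GABARAP proteins are the adaptors that coat the autophagosome and recruit its cargo. In 84Q against 15Q their 5 genes had log2 fold changes between 0.12 and 0.32, and 4 of 5 were higher at an unadjusted p under 0.05 (background 9.04%), but 0 of 5 passed the adjusted p. The count at the unadjusted p was 2 of 5 after the length correction (1085 of 19353 genes). It was 1 of 5 after the length and GC correction (1054 genes). Gabarapl2 (ENSMUSG00000031950.7, chromosome 8, 111940703 to 111953612, plus strand) had 75.8, 68.0 and 73.3 CPM in the controls, 89.3, 78.5 and 104 CPM in 84Q, and 93.9, 79.3 and 86.7 CPM with IGF-1. All 6 mice with the expanded repeat were above the 15Q mice, with 84Q mouse 2 and 84Q+IGF-1 mouse 2 closest to them. The log2 fold change was 0.32 (SE 0.093), or 1.25-fold with an interval from 1.09-fold to 1.44-fold, in 84Q against 15Q. Its edgeR adjusted p was 0.101, and 0.000346 to 0.312 in 18 alternatives, of which 7 were under the threshold. The log2 fold change was 0.42 without 84Q mouse 2 and 0.22 without 84Q mouse 3. In 84Q+IGF-1 against 15Q it was 0.26 (SE 0.093, edgeR adjusted p 0.179). Transcripts of other genes share 15.2% of the 31-base words of Gabarapl2, so part of its counts is uncertain.

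Map1lc3a (ENSMUSG00000027602.9, chromosome 2, 155276297 to 155278073, plus strand) had 51.7, 49.8 and 47.3 CPM in the controls, 54.0, 62.2 and 64.3 CPM in 84Q, and 63.4, 52.3 and 49.4 CPM with IGF-1. The 84Q mice were above the 15Q mice, but the treated mice overlapped both, with treated mouse 1 alone at the level of 84Q mice 2 and 3. Map1lc3a had a log2 fold change of 0.28 between 84Q and 15Q (SE 0.093, edgeR adjusted p 0.143), with an adjusted p of 0.00921 to 0.57 in the alternatives. Gabarapl1 had 166, 179 and 167 CPM in the controls, 204, 170 and 210 CPM in 84Q, and 187, 189 and 207 CPM with IGF-1. Its 84Q mouse 2 lay within the 15Q range, and 28.3% of its exon bases overlap 1700101I11Rik on the opposite strand. Gabarap, at 56.5 to 60.2 CPM in 15Q and 57.3 to 67.3 CPM in 84Q, and Map1lc3b, at 164 to 173 CPM and 175 to 196 CPM, showed smaller differences, and only the latter had groups that did not overlap.

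The whole family can also be read as a sum per library. The 5 genes together had 854, 864 and 853 TPM in the controls, 970, 884 and 1029 TPM in 84Q, and 960, 909 and 963 TPM with IGF-1. All 6 mice with the expanded repeat were above the 3 controls, and the 2 groups with the expanded repeat overlapped. In 84Q+IGF-1 against 84Q, the log2 fold changes of the 5 genes lay between -0.13 and -0.00388, with 0 of 5 at an unadjusted p under 0.05.

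**Figure D3:**
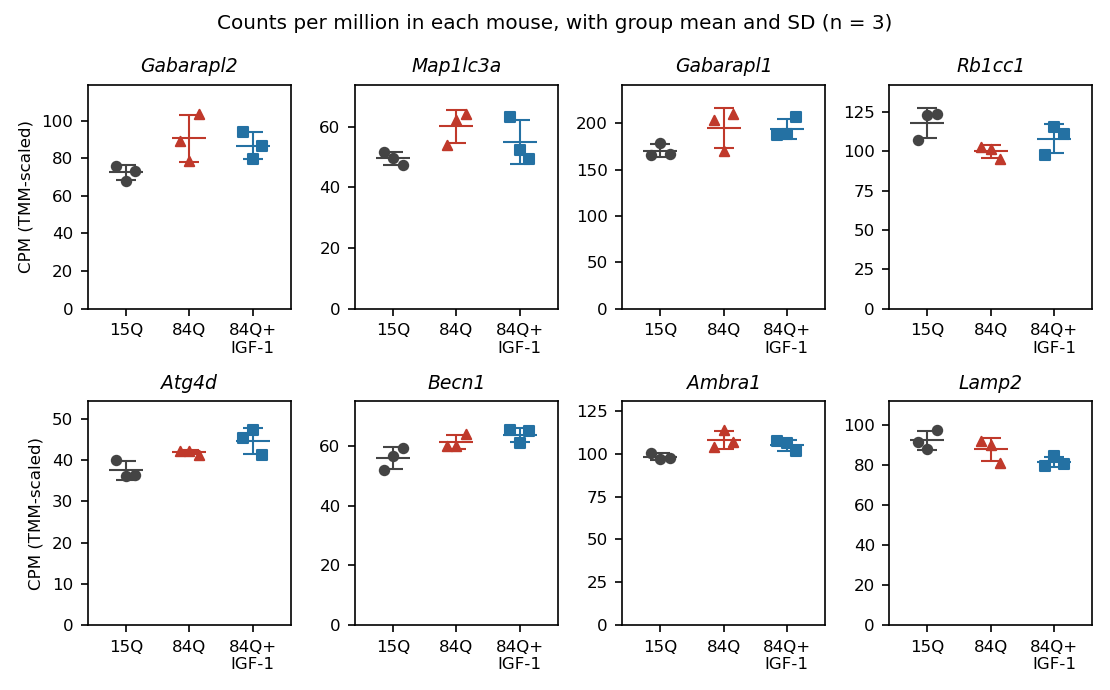
CPM (TMM-scaled, axis from 0) of 8 of the genes in each mouse, with the mean (wide bar) and SD (error bar, n = 3) of each group. For Gabarapl2, Atg4d, Becn1 and Ambra1 all 6 mice with the expanded repeat lie above the 15Q mice, for Rb1cc1 the 84Q mice lie below them, and the 84Q and 84Q+IGF-1 points overlap in all 8 panels.

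Cargo receptors bind ubiquitinated proteins on one side and LC3 on the other. Sqstm1, the gene of p62, is a usual readout of autophagy, since the protein is degraded with its cargo. Its RNA had 291, 292 and 284 CPM in the controls, 317, 303 and 330 CPM in 84Q, and 293, 297 and 319 CPM with IGF-1. The 84Q mice lay above the controls and the treated mice 1 and 2 were within 5 CPM of the highest control. Sqstm1 overlaps Mrnip on the opposite strand over 17.3% of its exon bases. Nbr1, a second receptor, had 272 CPM ± 6.76 in the controls (SD, n = 3), 264 ± 7.32 in 84Q and 279 ± 10.4 with IGF-1, with a log2 fold change of 0.08 (SE 0.055, edgeR adjusted p 0.969) in the treated against the untreated 84Q mice. Optn, the mitophagy receptor optineurin, and Calcoco1, a receptor for the endoplasmic reticulum, had 29.1 to 34.1 CPM and 99.1 to 107 CPM over the 9 mice.

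Of the 3 lysosomal genes, Tfeb encodes the transcription factor and Lamp1 and Lamp2 encode the main membrane proteins. Tfeb was the least abundant of the 37 genes per length, with 14.1, 14.4 and 13.05 CPM in the controls, 17.04, 16.5 and 14.6 CPM in 84Q, and 16.9, 15.6 and 16.2 CPM with IGF-1. All 6 mice with the expanded repeat were above the controls, 84Q mouse 3 by the least. Lamp1 had 279, 244 and 209 CPM in the controls, 271, 281 and 289 CPM in 84Q, and 256, 267 and 249.2 CPM with IGF-1, so that 15Q mouse 1 was within the range of 84Q and the treated mice were below all 84Q mice. Lamp2, which is X-linked (ENSMUSG00000016534.15, chromosome X, 38401357 to 38456454, minus strand), had 91.4, 88.2 and 97.4 CPM in the controls, 92.1, 90.2 and 81.2 CPM in 84Q, and 79.7, 84.4 and 80.4 CPM with IGF-1. The treated mice were below the controls and overlapped 84Q. The log2 fold change of Lamp2 was -0.18 (SE 0.06, edgeR adjusted p 0.153) against 15Q and -0.11 (SE 0.06, edgeR adjusted p 0.969) against 84Q.

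TFEB binds an E-box within a longer element, and its core GTCACGTG (8 letters, searched on both strands, nested with the shorter CACGTG) was looked up in promoters of the genes. RefSeq promoters of GRCm38.p6, each from 250 bases before to 50 bases after a start, were matched for 31 of the 37 genes. Of these, 5 held CACGTG (Atg3, Atg5, Atg7, Atg14 and Lamp1), where 8.09% of 27025 genes with such a promoter did, and 4 of them held GTCACGTG, where 2.55% of genes did. The stretches around this core are shown because its letters belong to the element of a factor of the list, and no binding was measured. Capitals mark the core or its reverse complement, and each line is read 5′ to 3′ on the strand of the gene.
Atg7 (chr6:114670946-114670985, plus strand): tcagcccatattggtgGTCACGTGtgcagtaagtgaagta
Lamp1 (chr8:13159117-13159156, plus strand): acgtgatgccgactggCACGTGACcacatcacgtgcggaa
Atg14 (chr14:47568412-47568451, minus strand): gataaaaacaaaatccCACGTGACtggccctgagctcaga
Atg3 (chr16:45158717-45158756, plus strand): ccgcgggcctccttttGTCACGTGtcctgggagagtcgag
The first base of the core lies 134 bases before the start in Atg7, 28 in Lamp1, 1 in Atg14 and 96 in Atg3, and Atg3 has the core again at 73 bases before the start. The starts matched in Atg7 and Atg14 are not the 5′ ends of these genes in the annotation used here. Those ends lie at 114643097 for Atg7 and 47570649 for Atg14, so both cores fall inside the gene. A match is a description of letters and not a binding site. In 84Q, where Tfeb had 16.1 CPM ± 1.25 against 13.8 ± 0.698 in 15Q (SD, n = 3), the levels of these 4 genes in 84Q and 15Q were 27.0 ± 1.27 and 27.7 ± 1.95 CPM for Atg7, 280 ± 8.94 and 244 ± 34.6 CPM for Lamp1, 25.6 ± 1.196 and 24.9 ± 0.507 CPM for Atg14, and 40.6 ± 3.85 and 41.6 ± 1.87 CPM for Atg3. The groups overlapped for all 4.

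The differences of the 37 genes were set beside a trend with transcript length that ran through the whole transcriptome. Over protein-coding genes, the median log2 fold change in 84Q against 15Q went from 0.10 for the 1996 genes with up to 2000 exon bases to -0.10 for the 1970 genes with over 9000. In 84Q+IGF-1 against 15Q it went from 0.08 to -0.07, and between 84Q+IGF-1 and 84Q from -0.04 to 0.03. Within single libraries, the median deviation of the shortest minus that of the longest class was -0.084, -0.090 and -0.152 in the controls, 0.052, 0.025 and 0.215 in 84Q, and 0.145, -0.063 and 0.002 with IGF-1, on the log2 scale. GC content showed a trend as well. In 84Q against 15Q the median log2 fold change was -0.07 for genes up to 45% GC and 0.09 for genes above 55% GC.

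Several of the genes named for 84Q against 15Q sat near the ends of this range. Map1lc3a has 1181 exon bases, Gabarap 1844, Gabarapl1 2013 and Gabarapl2 2325, while Atg2b has 13456 and Rb1cc1 14690. With each library corrected for length, 84Q differed from 15Q by a log2 fold change of 0.20 for Gabarapl2 (edgeR adjusted p 0.189), 0.14 for Map1lc3a (0.434) and -0.11 for Rb1cc1 (0.321), where the uncorrected values were 0.32, 0.28 and -0.24. Gabarap came to -0.00315 and Atg2b to -0.02. Map1lc3b, with 7517 exon bases, had 0.16 after the correction and 0.13 before, and Tfeb, with 5669, had 0.21 and 0.22. With GC content corrected as well, Tfeb, whose exons have 63.2% GC, came to 0.13, Gabarapl2 to 0.25, Map1lc3a to 0.07 and Rb1cc1 to -0.05. Atg4d, with 7264 exon bases, kept a log2 fold change of 0.26 in 84Q+IGF-1 against 15Q after the correction, with an edgeR adjusted p of 0.0798, under the threshold of 0.1. After the correction, 21 of the 37 genes were positive in 84Q against 15Q with a median of 0.05, against 42.2% of all genes. At an unadjusted p under 0.05, 12 of the 37 were then higher and 0 lower (1085 and 2286 of 19353 genes). With GC corrected as well, 8 were higher and 1 lower (1054 and 2199 genes). In 84Q+IGF-1 against 15Q, 6 were higher and 3 lower with length corrected (894 and 2421 genes). With both corrected, 4 were higher and 2 lower there (901 and 2394 genes). With length and GC corrected, 20 of 37 were positive in 84Q, at a median of 0.03 (42.3% of all genes), and 18 of 37 in 84Q+IGF-1 against 15Q, at a median of -0.00034 (40.1% of all genes).

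**Figure D4:**
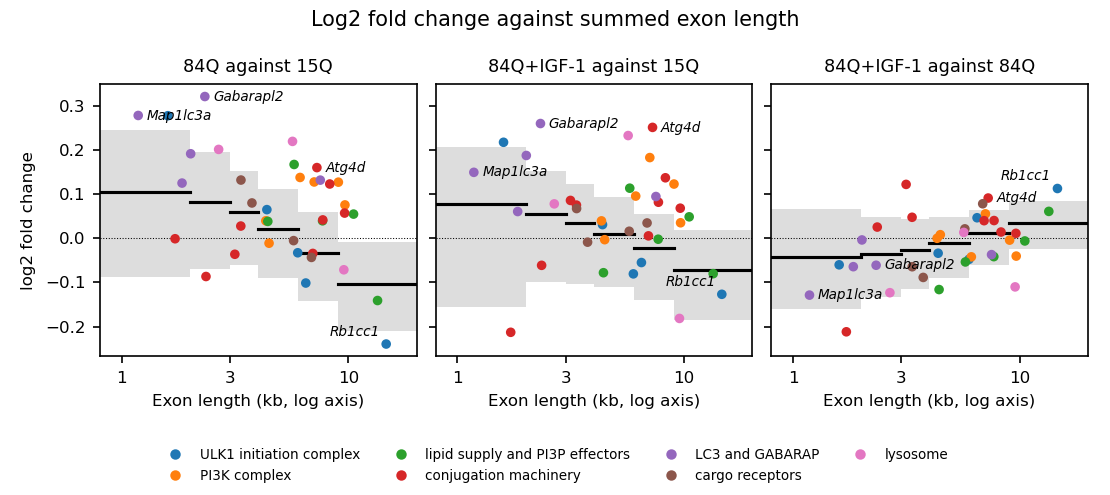
Log2 fold change of the 37 genes (points, coloured by role) against the summed exon length of the gene in kilobases (log axis), over the median (black lines) and the middle 50% (grey) of all protein-coding genes in 6 length classes, for the 3 comparisons. In 84Q against 15Q the class medians go from 0.10 for the shortest to -0.10 for the longest genes, and Map1lc3a and Gabarapl2 lie at the short end and Rb1cc1 at the long end.

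Beyond the 37 genes, 4 lists of the same pathway were read in the same fit, with all of their genes tested. The proton pump of the lysosome, the vacuolar ATPase, had 17 of 18 subunit genes positive in 84Q against 15Q at a median log2 fold change of 0.15, and 18 of 18 in 84Q+IGF-1 against 15Q at 0.12, where 49.7% and 48.9% of all genes were positive. After the length correction 16 of 18 were positive in each, at medians of 0.07 and 0.08 (42.2% and 40.3% of all genes were positive). Its gene Atp6v0d1, a subunit of the membrane sector, passed the adjusted p in both. It had 84.6, 79.5 and 76.4 CPM in the controls, 97.3, 93.1 and 105 CPM in 84Q, and 102, 93.3 and 96.7 CPM with IGF-1, with no overlap between the controls and the other 6 mice. Atp6v0d1 rose by 0.30 on the log2 scale (SE 0.061, edgeR adjusted p 0.0343) in 84Q and by 0.28 (SE 0.061, edgeR adjusted p 0.0421) in 84Q+IGF-1, and by 0.17 in each after the length correction (edgeR adjusted p 0.0963 and 0.091). Over the 18 alternatives its adjusted p was 0.000957 to 0.158 in 84Q and 0.00225 to 0.29 in 84Q+IGF-1. Without the correction, Atp6v0d1 was the 1 of 18 subunits to pass in each comparison (background 4.8% and 3.67%). After it, 2 of 18 passed in 84Q and 1 of 18 in 84Q+IGF-1 (692 and 771 of 19353 genes).

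Of 35 lysosomal hydrolases, 25 were positive in 84Q against 15Q at a median of 0.08, 10 were higher at an unadjusted p under 0.05 (background 9.04%) and 2 passed the adjusted p (background 4.8%). After the length correction 20 of 35 were positive at a median of 0.04 (42.2% of all genes). With it, 0 of 35 passed the adjusted p (692 of 19353 genes). In 84Q+IGF-1 against 15Q it left 12 of 35 positive at a median of -0.04 (40.3% of all genes). There 1 of 35 passed the adjusted p, as lower (771 genes passed in either direction). Uncorrected, 18 of 35 were positive in 84Q+IGF-1 against 15Q and 5 of 35 in 84Q+IGF-1 against 84Q, the latter at a median log2 fold change of -0.06, where 48.7% of all genes were positive. Ppt1, a thioesterase, rose by 0.19 on the log2 scale (SE 0.048, edgeR adjusted p 0.0756). After the length correction the edgeR adjusted p of Ppt1 was 0.219, and the alternatives together gave 0.0178 to 0.258. The 5 microglial markers, cells rich in lysosomal enzymes, summed to 112 to 132 CPM in the controls, 129 to 164 CPM in 84Q and 120 to 126 CPM with IGF-1, and all 5 had a positive log2 fold change in 84Q, with Csf1r at 0.37 (edgeR adjusted p 0.0271). Between 84Q+IGF-1 and 84Q, 0 of the 5 microglial markers were positive (median log2 fold change -0.20) and 0 of 6 oligodendrocyte markers (median -0.28). The part of either cell type in the values of the hydrolases was not tested.

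Of 24 genes of the lysosomal membrane and of nutrient sensing at its surface, 3 passed the adjusted p in 84Q against 15Q (background 4.8%). Rraga, a GTPase that recruits mTORC1 to the lysosome, rose by 0.28 (SE 0.064, edgeR adjusted p 0.051), and Cln3, a lysosomal membrane protein, rose by 0.29 (SE 0.079, edgeR adjusted p 0.0875). Fnip1, a partner of folliculin in the same signal, fell by 0.30 (SE 0.085, edgeR adjusted p 0.0977). Of 34 other autophagy genes, 1 passed in 84Q (background 4.8%) and 2 in 84Q+IGF-1 (background 3.67%) against 15Q. Vps18, a subunit of the complexes that tether vesicles to lysosomes, rose in both comparisons with 15Q, by 0.24 (SE 0.065, edgeR adjusted p 0.0869) and 0.25 (SE 0.065, edgeR adjusted p 0.0777). Tecpr1, which links autophagosomes and lysosomes, rose by 0.24 (SE 0.061, edgeR adjusted p 0.0802) in 84Q+IGF-1 against 15Q. After the length correction, the log2 fold change in 84Q was 0.15 for Rraga (edgeR adjusted p 0.187), 0.28 for Cln3 (0.1002), -0.28 for Fnip1 (0.12) and 0.20 for Vps18 (0.109), all above the threshold. Against 15Q, the treated mice kept 0.22 for Vps18 (edgeR adjusted p 0.0777) and 0.31 for Tecpr1 (0.0689) after this correction, with 0.0164 to 0.382 and 0.00513 to 0.264 over the alternatives. With it, 3 of the 34 other autophagy genes passed in 84Q+IGF-1 and 0 in 84Q, and 1 of the 24 membrane genes passed in 84Q. Over all genes, 771 of 19353 passed with this correction in 84Q+IGF-1 and 692 in 84Q. Over the 18 alternatives the adjusted p in 84Q was 0.00356 to 0.21 for Rraga, 0.0467 to 0.249 for Cln3, 0.00168 to 0.349 for Fnip1 and 0.0292 to 0.294 for Vps18. Each of these genes missed the threshold in 7 to 13 of 18 alternatives, and Atp6v0d1 missed it in 4. None of the genes of the 4 lists passed the edgeR adjusted p between the treated and the untreated 84Q mice. At an unadjusted p under 0.05, 1 of the other autophagy genes was higher there (background 1.83%), and 4 hydrolases and 1 membrane gene were lower (background 2.84%).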

How the data were processed

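RNA of the cerebellum of 9 mice, 3 per group, was sequenced in paired ends from a stranded library kit. The authors deposited raw read counts per gene, which they made, per the labels and the study's methods, with bcl2fastq 2.20, Trimmomatic 0.36, HISAT2 2.2.0 on GRCm38.p6 and featureCounts. The annotation release and the strand setting are not given in the sources used here. Columns were assigned to mice by the animal codes in the sample titles. The table holds 37816 genes and totals of 17482654 to 58269196 counts, so 3 counts in a library were 0.0513 to 0.171 CPM.

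Genes were tested in R 4.3.3 with edgeR 4.0.16 (TMM, filterByExpr, quasi-likelihood test on all 9 libraries, no covariate), with Benjamini-Hochberg adjustment over the 19353 genes that passed the filter. Calls were made at an adjusted p under 0.1 with at least a 1.5-fold difference, and counts at the adjusted p alone are given beside it. SE, 95% intervals and n = 3 refer to libraries. Fold changes with adjusted p are given for the 3 genes with the smallest p in each direction of each comparison, and levels for the others. A gene named with such a p from outside the 37 genes passed the adjusted p. DESeq2 1.42.0, other size factors, no filter, a replicate block, the libraries of 2 groups alone, Xist and the choroid plexus level as covariates, and leaving out each library were alternatives. The length correction, and the length and GC correction, which remove a lowess curve (span 0.3) from each library, were chosen after seeing the data. The methods were tested on simulated data.

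TPM and coordinates use GRCm38 (GENCODE vM21 exons), and 37681 of 37816 identifiers matched. Promoters come from RefSeq, GRCm38.p6. The 37 genes and the further lists were chosen with earlier results of these data known. One lysosomal hydrolase is counted with its list but not reported here.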

Additional observations from a re-analysis of the deposited data

How the results depend on the processing

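None of the 37 genes was called at the 1.5-fold threshold under any alternative, and between 84Q+IGF-1 and 84Q none passed the adjusted p of 0.1 under any. Against 15Q the count of the 37 genes at an adjusted p under 0.1, 0 as reported in both comparisons, depended on the setting. In 84Q it was 4 without the filter, 3 with DESeq2, 2 with the libraries of the 2 groups alone, 1 with DESeq2 size factors, 1 with the replicate block and 0 to 3 when 1 library was left out (3 without treated mouse 1, 2 without control 1 or 84Q mouse 2, 1 without 84Q mouse 1 or treated mouse 2). In 84Q+IGF-1 against 15Q it was 2 without the filter and with the length and GC correction, 1 with the length correction, DESeq2, DESeq2 size factors or the libraries of the 2 groups alone, and 0 to 2 when 1 library was left out (2 without 84Q mouse 3, 1 without control 1 or treated mouse 3). Over all genes, 414 were called in 84Q, against 1025 without the filter, 242 with the replicate block, 274 with Xist as a covariate, 243 at an adjusted p under 0.05 and 184 to 551 with 1 library left out (184 without control 2, 185 without control 3). In 84Q+IGF-1 against 15Q, 435 genes were called, against 1284 without the filter, 271 with the block, 250 with the choroid plexus covariate, 281 at an adjusted p under 0.05 and 226 to 629 with 1 library left out (226 without control 3, 244 without control 2). Between 84Q+IGF-1 and 84Q, 0 genes were called, against 168 without the filter, 6 with DESeq2 and 0 to 9 with 1 library left out (9 without 84Q mouse 2). These counts over all genes include the 1.5-fold threshold. At the adjusted p alone, 928 and 711 of 19353 genes passed in 84Q and 84Q+IGF-1 against 15Q as reported. The numbers were 692 and 771 with the length correction, and 675 and 842 with the length and GC correction. They are not given for the other settings, so the counts of the 37 genes there have no matching background. The cause of the differences between settings was not tested. Of the 18 log2 fold changes given with an adjusted p for members of the 37 genes, 0 reversed in 324 refits, 295 refits stayed on their side of the threshold and 29 passed it. Members without such a p did change sign, among them Gabarap in 84Q against 15Q under both corrections for length, and the named genes of the 4 further lists lost the threshold in 4 to 13 of 18 alternatives. A covariate moved 3 of the 18 values by over 1.5 times, Rb1cc1 (-0.07 with Xist) and Gabarapl2 (0.17 with the choroid plexus level) in 84Q+IGF-1 against 15Q and Atg3 (0.08 with the choroid plexus level) in 84Q+IGF-1 against 84Q. The length correction, and the length and GC correction, moved Rb1cc1 to -0.04 and -0.00034 in 84Q+IGF-1 against 15Q and to 0.06 and 0.05 in 84Q+IGF-1 against 84Q, and Atg2b in 84Q to -0.02 and -0.06. Gabarapl2 moved to 0.16 with the first and Lamp2 to -0.10 with the second in 84Q+IGF-1 against 15Q. Leaving out 1 library moved these by over 1.5 times, in 84Q Ulk1 to -0.05 without control 1 and -0.06 without 84Q mouse 1 and Atg2b to -0.09 without control 3, in 84Q+IGF-1 against 15Q Rb1cc1 to -0.08 without control 3 and -0.06 without treated mouse 1 and Ulk2 to -0.05 without control 1, and in 84Q+IGF-1 against 84Q Atg10 to -0.11 without treated mouse 2, Atg3 to 0.19 and 0.06 without 84Q mice 1 and 2, Rb1cc1 to 0.18 and 0.06 without treated mice 1 and 2 and Wipi1 to -0.07 without 84Q mouse 1. Mice with the same replicate number did not deviate together (correlations of -0.309 to 0.0788), so the numbers pair nothing and the block shares only a number. In 84Q against 15Q the intervals were widest for Atg101 and Atg10, the 2 of the 37 genes with the lowest counts in a library.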
